A study of Homo sapiens with 52 samples.

Results

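Huh6 cells treated with 5 uM iMDK were compared with Huh6 cells treated with vehicle, 3 libraries against 3, which are 6 of the 52 libraries of the series. The 6 libraries were chosen by their labels alone, through the columns of the deposited count table that carry their names. Huh6 is an established human hepatoblastoma line, a model of the embryonal liver tumour of childhood. iMDK is a small molecule used as an inhibitor of the growth factor midkine. The study asked how Wnt and midkine signalling in hepatoblastoma cells shape their immune surroundings, and its other libraries hold Huh6 and HepG2 cells given the Wnt inhibitor PKF118-310, HepG2 cells given iMDK, and macrophages derived from the THP-1 line. Cells of the vehicle group received medium with an empty vehicle whose composition the labels do not give, and cells of the iMDK group received medium with 5 uM iMDK. Both groups had attached and grown for 48 h before the medium was changed, and RNA was isolated after another 48 h. Another 3 Huh6 libraries at 10 uM iMDK and 6 HepG2 libraries (vehicle and 5 uM iMDK) were used for tests of dose and of line. No label tells if the 3 libraries of each group grew as separate cultures, so n is a number of libraries. The p values rest on the spread between libraries of a group, which may be technical. For the Huh6 tests this spread was estimated over all 18 Huh6 libraries, those given PKF118-310 included. In these bulk libraries fewer cells of a kind and less RNA per cell cannot be told apart.

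Midkine, encoded by MDK, is a secreted heparin-binding growth factor of the embryo that reappears in many tumours, and it binds a set of cell surface proteins that includes LRP1, nucleolin and the syndecans. In the KEAP1-NRF2 system, KEAP1 hands the transcription factor NRF2 to the proteasome until oxidants or electrophiles modify it; NRF2 then pairs with small MAF proteins on antioxidant response elements and raises genes of glutathione, thioredoxin and NADPH supply. Hepatoblastoma cells keep a fetal liver programme, with alpha-fetoprotein, glypican 3 and IGF2, beside secreted proteins of the mature hepatocyte and active beta-catenin signalling.

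The 6 libraries held 19347053 to 19856307 counts each, at which 3 counts correspond to 0.151 to 0.155 CPM, the count of a gene scaled to the same total in every library. Mitochondrially encoded genes held 2.801 to 3.23% of the counts. Libraries of 1 group differed by 2.01 to 3.09 per degree of freedom in a chi-square test of their counts over genes, more than sampling noise alone gives, and libraries of different groups by 26.5 to 30.04. The first principal component held 48.5% of the variance and separated vehicle from iMDK. The line was checked against its markers: 17 of 18 hepatoblastoma markers were measured, among them EPCAM at 1145 CPM, GPC3 at 2139 CPM and KRT18 at 2312 CPM in vehicle, whereas ALB was low at 2.86 CPM and DLK1 too low to be tested. Of 14 macrophage markers 8 had enough counts to be tested, with a summed level of 193 to 200 CPM in vehicle. Most of that sum came from 1 gene, CD74, the invariant chain of MHC class II. CSF1R had 214, 204 and 244 counts in the vehicle libraries. PTPRC, by contrast, had 2 counts in the 3 vehicle libraries and 0 in the 3 iMDK libraries, TYROBP had 0 and 1, and CD68 was listed at 0 in every library. Genes that growing cells use, such as the ribosomal RPL15 and RPS4X, were also listed at 0 in all 6 libraries for a reason that was not tested, so a gene listed at 0 is reported as such and not as absent.

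Of 15029 genes tested, 2602 were higher with 5 uM iMDK (17.3%) and 2755 were lower (18.3%), 35.6% in all, by edgeR's quasi-likelihood test with Benjamini-Hochberg adjustment at a threshold of 0.05. A change of at least 2-fold was reached by 239 of the higher genes (1.59% of genes tested) and 202 of the lower ones (1.34%). When genes were kept only from 50 counts instead of 10, 127 and 87 genes reached 2-fold. The 3 values of 1 group lay wholly above or below those of the other for 44.9% of genes. The median log2 fold change of all genes tested was -0.0003, which is the level against which gene lists are set here. Counts of called list members at 5 uM are likewise set against the shares of 17.3% higher and 18.3% lower. Among called genes with a mean log2 CPM of at least 2, 10 rose by more than 4-fold and 0 fell by more than 4-fold.

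**Figure D1:**
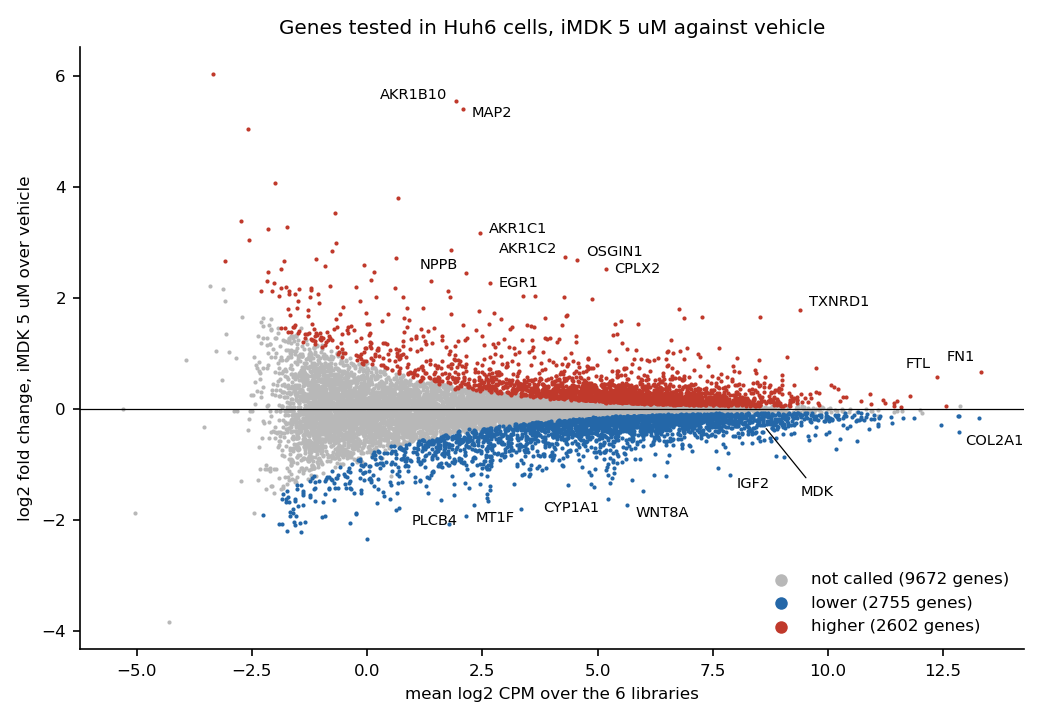
Log2 fold change of 5 uM iMDK over vehicle (vertical) against mean log2 CPM over the 6 libraries (horizontal) for every gene tested in Huh6 cells. Red points are the 2602 genes called higher, blue points the 2755 called lower and grey points the rest; TXNRD1, FTL and FN1 combine a high level with a rise, whereas MDK lies close to 0.

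RNA of MDK, whose product iMDK is meant to block, was slightly lower. MDK (chromosome 11, 46380756 to 46383837, plus strand, GRCh38) stood at 439, 432 and 417 CPM in the vehicle libraries and at 349, 358 and 349 CPM in the iMDK libraries. All 3 treated values lay below all 3 vehicle values, and such a separation was found for 44.9% of all genes tested. The log2 fold change was only -0.29 ± 0.025 (± SE here and below, whereas ± after CPM is the SD over 3 libraries), a fall to 0.8198 of the vehicle level (edgeR adjusted p = 9.6e-13). Its homologue PTN rose slightly, from 70.05 ± 2.72 to 78.3 ± 1.98 CPM (n = 3; log2 fold change 0.16 ± 0.040). Of 19 members of the list of midkine, pleiotrophin and their receptors, 17 were tested, 4 were higher and 3 lower, with a median log2 fold change of 0.076, beside 17.3% higher and 18.3% lower among all genes tested. NOTCH2, a receptor reported to bind midkine, showed the largest rise among those above 10 CPM, from 50.3, 48.3 and 46.4 to 68.2, 68.1 and 80.2 CPM (log2 fold change 0.58 ± 0.065). NCL, which encodes nucleolin, rose by a log2 fold change of 0.10 ± 0.020. The heparan sulphate carrier SDC2 and the integrin chain ITGB1 were lower, with log2 fold changes of -0.20 ± 0.025 and -0.29 ± 0.026. LRP1 (634 ± 33.7 against 652 ± 113 CPM) and SDC4 (100.1 ± 2.79 against 106 ± 4.58 CPM) did not pass the test, although SDC4 was called higher without iMDK library 1 (log2 fold change 0.12). PTPRZ1 was at 0.538 CPM in vehicle, a level at which a modest change was not detectable.

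Genes that supply glutathione, thioredoxin and NADPH under NRF2 were mostly higher with iMDK. Promoter windows are shown for TXNRD1, GCLM and ME1, members of the NRF2 target list that were higher with iMDK and carry the core of the antioxidant response element in the first 250 bases before their start site. Each window is taken from RefSeq (GRCh38.p14), reads 5′ to 3′ on the strand of the gene, and spans 250 bases before the start site and the first 30 bases of the transcript. Capitals mark TGACNNNGC on either strand, so a match on the opposite strand reads GCNNNGTCA. The TXNRD1 window is chr12:104215529-104215808 on the plus strand, the GCLM window chr1:93909401-93909680 on the minus strand and the ME1 window chr6:83431022-83431301 on the minus strand.
TXNRD1: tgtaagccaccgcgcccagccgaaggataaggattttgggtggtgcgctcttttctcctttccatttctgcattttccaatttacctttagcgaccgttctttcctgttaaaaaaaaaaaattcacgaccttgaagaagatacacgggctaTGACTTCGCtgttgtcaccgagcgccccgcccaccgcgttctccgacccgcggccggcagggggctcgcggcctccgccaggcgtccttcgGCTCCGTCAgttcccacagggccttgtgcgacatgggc
GCLM: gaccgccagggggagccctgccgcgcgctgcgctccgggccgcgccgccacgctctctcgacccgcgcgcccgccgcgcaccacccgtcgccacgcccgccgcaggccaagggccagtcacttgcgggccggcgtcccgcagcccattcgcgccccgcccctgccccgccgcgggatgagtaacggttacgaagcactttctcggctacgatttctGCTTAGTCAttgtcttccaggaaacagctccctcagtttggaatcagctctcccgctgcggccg
ME1: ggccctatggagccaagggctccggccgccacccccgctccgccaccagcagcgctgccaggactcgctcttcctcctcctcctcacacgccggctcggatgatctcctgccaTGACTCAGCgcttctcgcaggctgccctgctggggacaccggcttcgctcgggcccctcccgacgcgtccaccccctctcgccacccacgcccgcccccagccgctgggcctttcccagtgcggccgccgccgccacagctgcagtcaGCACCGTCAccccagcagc
These letters occurred in 5 of the 17 windows of tested NRF2 targets matched by symbol, in 15.2% of the 10768 windows of tested genes and in 13.6% of all 27305 windows of 300 bases. A match is a description of the letters and not a binding site. PGD and PIR were the other members of the list with a match, and of these PIR did not pass the test (34.4 ± 0.4301 against 37.2 ± 1.24 CPM).

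TXNRD1, the cytosolic thioredoxin reductase, stood at 364, 374 and 353 CPM in vehicle and 1249, 1280.4 and 1226 CPM with iMDK, a rise to 3.44 times the vehicle level (log2 fold change 1.78 ± 0.025, edgeR adjusted p = 1.2e-40). The spread within each group was a small part of the gap between them. GCLM, the modifier subunit of the enzyme that starts glutathione synthesis, moved from 67.97, 66.7 and 65.8 to 211, 213 and 202 CPM (log2 fold change 1.64 ± 0.034). OSGIN1, an oxidative stress response gene, showed the largest rise of the list, from 8.103, 10.8 and 9.12 to 58.99, 62.1 and 59.3 CPM (log2 fold change 2.69 ± 0.070). ME1, the malic enzyme that supplies NADPH, moved from 265 ± 2.31 to 494 ± 19.3 CPM (n = 3; log2 fold change 0.90 ± 0.027). SQSTM1, the selective autophagy receptor that also binds KEAP1, stood at 209.9, 205 and 208 CPM in vehicle and 657, 667 and 643 CPM with iMDK. The ferritin chains FTL and FTH1 rose by log2 fold changes of 0.59 ± 0.021 and 0.36 ± 0.064; both have processed pseudogenes with which reads could be shared. The haem oxygenase HMOX1 rose by 0.69 ± 0.030. Of 30 NRF2 targets, 27 passed the low count filter, 22 were higher and 1 lower, and their median log2 fold change was 0.59 against -0.0003 for all genes. The exception was SLC6A6, the taurine transporter, which fell by 0.33 ± 0.024 on the log2 scale. SRXN1, which restores peroxiredoxins, was listed at 0 in all 6 libraries.

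Aldo-keto reductases, which reduce aldehydes and ketones with NADPH, split by member. AKR1B10 (chromosome 7, 134527592 to 134541408, plus strand, GRCh38) had 10, 12 and 10 counts in the vehicle libraries and 508, 542 and 497 counts with iMDK, which is 47.9 times as many after scaling for library size (95% interval 33.8 to 70.3, counting error only). AKR1C1 stood at 1.55, 1.94 and 1.96 CPM in vehicle and 15.1, 16.99 and 17.4 CPM with iMDK (log2 fold change 3.18 ± 0.13), and AKR1C2 at 7.55, 7.25 and 7.91 and 47.6, 55.8 and 49.5 CPM (log2 fold change 2.75 ± 0.078). The AKR1C genes are near-identical copies, and AKR1B10 has a close copy in AKR1B15, so how the counting shared reads within each set is uncertain. AKR1C3 rose by a log2 fold change of 0.50 ± 0.060 and AKR1B1, the polyol pathway enzyme, by 0.21 ± 0.034. AKR1A1 and AKR7A2 were lower, with log2 fold changes of -0.12 ± 0.039 and -0.19 ± 0.045, although AKR1A1 was no longer called without vehicle library 3 (-0.085) or iMDK library 1 (-0.10). AKR7A2 is the only one of the 8 family windows with the letters TGACNNNGC. In all, 5 of 9 tested members (12 in the list) were higher and 2 lower. PTGR1, a reductase of lipid-derived enals, belonged to no list and moved from 58.6, 59.2 and 57.1 to 206, 213 and 195 CPM (log2 fold change 1.81 ± 0.042).

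Genes that build and restrain the NRF2 system changed at the RNA level as well, except NRF2 itself. NFE2L2, which encodes NRF2, stood at 262 ± 3.78 CPM in vehicle and 267 ± 7.95 CPM with iMDK, with a log2 fold change of 0.029 ± 0.025 that did not pass the test. KEAP1 rose by a log2 fold change of 0.32 ± 0.046, and the partner MAFF from 3.201, 3.11 and 3.02 to 7.898, 9.17 and 8.27 CPM (log2 fold change 1.44 ± 0.13). The other small MAF genes were also higher, with log2 fold changes of 0.59 ± 0.072 for MAFG and 0.35 ± 0.065 for MAFK. The related factors NFE2L1 (-0.12 ± 0.026) and NFE2L3 (-0.31) were lower. In the list of the KEAP1-NRF2 system 6 of 9 tested genes were higher and 2 lower. Among conjugating enzymes the picture was mixed, with 6 of 15 tested glutathione transferases, UGTs and related genes higher and 5 lower. GSTP1 and MGST1 rose (log2 fold changes 0.41 ± 0.024 and 0.45 ± 0.031), whereas GSTM2 and GSTM4 fell (-0.44 ± 0.12 and -0.34 ± 0.092).

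**Figure D2:**
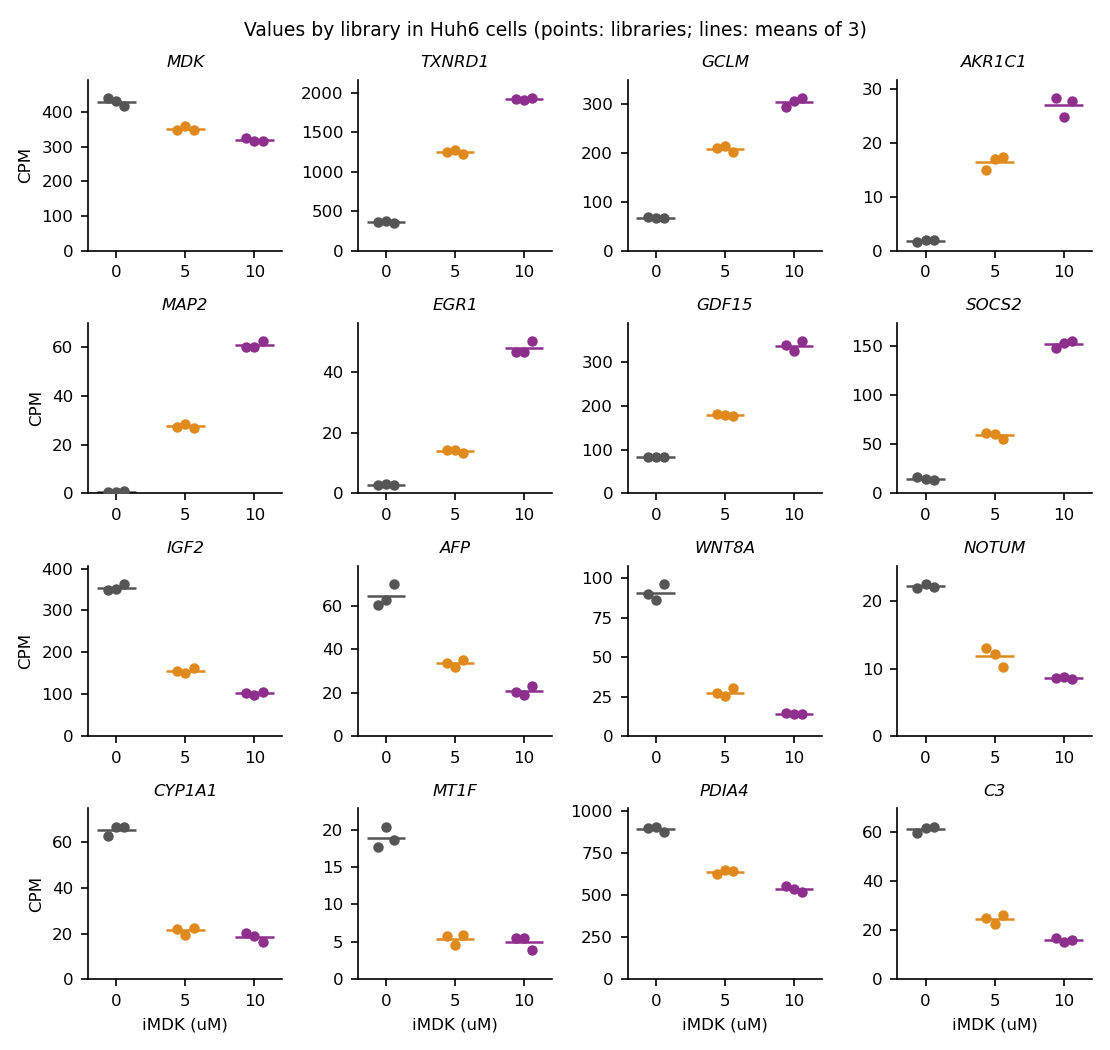
CPM (vertical) of 16 genes in each Huh6 library at 0 (vehicle), 5 and 10 uM iMDK (horizontal), 3 libraries per dose; points are libraries and lines are means. In every panel the 3 libraries at 5 uM lie wholly above or below the 3 vehicle libraries, as for 44.9% of all genes tested. A rule that required this chose some of the panels. Means moved from 429 to 352 CPM for MDK and from 364 to 1252 CPM for TXNRD1.

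Immediate early genes, which respond to growth signals and stress within minutes, were mostly higher after 48 h of treatment. EGR1 stood at 2.85, 3.01 and 2.72 CPM in vehicle and 14.3, 14.3 and 13.3 CPM with iMDK (log2 fold change 2.28 ± 0.11, edgeR adjusted p = 3.1e-21). FOS, from 0.8003, 0.714 and 0.605 to 3.01, 4.16 and 2.61 CPM, and the AP-1 partner FOSL1, from 7.55, 6.84 and 7.61 to 22.3, 20.2 and 19.4 CPM, rose as well. Of 14 tested members of 17, 11 were higher and 0 lower, with a median of 0.54. JUN and MYC rose by 0.60 ± 0.037 and 0.36 ± 0.046 on the log2 scale, while IER2 (19.9 ± 0.165 against 19.2 ± 1.01 CPM) did not pass. Feedback genes of the MAPK pathway went both ways, 5 of 15 higher and 4 lower. The phosphatases DUSP5, from 25.4, 29.04 and 25.99 to 66.2, 75.2 and 64.9 CPM, DUSP10 and DUSP4 were higher (log2 fold changes 1.36 ± 0.053, 1.01 ± 0.17 and 0.68 ± 0.17). DUSP6 and SPRY1, which are induced by ERK and curb it, and the ETS factor ETV5 were lower (-0.23 ± 0.036, -0.27 ± 0.056 and -0.41 ± 0.064). SOCS2, an inhibitor of growth hormone and cytokine receptors, moved from 16.4, 14.5 and 13.6 to 61.01, 60.3 and 55.2 CPM (log2 fold change 1.99 ± 0.059). Within its family SOCS4 rose by 0.26 ± 0.056, and SOCS3 (-0.088 ± 0.078) and CISH (-0.15 ± 0.31) did not pass. STAT3, a transducer of cytokine signals, rose by 0.44 ± 0.039. In the SOCS and STAT list 7 of 16 tested members were higher and 2 lower, beside 17.3% and 18.3% of all genes tested.

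The gene with the highest log2 fold change among those with a mean log2 CPM of at least 2 was MAP2 (chromosome 2, 209424058 to 209734118, plus strand, GRCh38), a microtubule-associated protein of neuronal dendrites. It stood at 0.5002, 0.561 and 0.856 CPM in vehicle and 27.3, 28.7 and 26.99 CPM with iMDK (log2 fold change 5.42 ± 0.14). The related MAP1B, from 36.2, 34.9 and 32.6 to 96.5, 95.5 and 108 CPM, and MAP1A, from 5.75, 6.69 and 7.204 to 17.97, 17.99 and 20.2 CPM, rose too, whereas tau, encoded by MAPT, did not pass (13.4 ± 0.141 against 14.5 ± 1.33 CPM). Stathmins STMN1 and STMN3, which destabilise microtubules, fell (log2 fold changes -0.28 ± 0.027 and -0.55 ± 0.095). In the list of the neuronal cytoskeleton 8 of 18 members were tested, 4 higher and 2 lower. Of 8 tested tubulin genes 2 were higher and 2 lower, beside 17.3% and 18.3% of all genes tested. These were TUBB2A at 0.69 ± 0.066 and TUBB6 at 0.38 ± 0.10 against TUBB at -0.11 ± 0.023 and TUBB4B at -0.13 ± 0.023. CPLX2, which encodes complexin 2 of vesicle release, moved from 16.5, 14.5 and 14.2 to 84.6, 91.3 and 84.9 CPM. NPPB, the precursor of brain natriuretic peptide, moved from 2.35, 1.68 and 1.61 to 10.1, 11.2 and 9.800 CPM. GPAT3, an acyltransferase of triglyceride synthesis, and the phosphatase DUSP8 rose by log2 fold changes of 2.05 ± 0.096 and 1.77 ± 0.14. FLG-AS1, an antisense RNA (1.73 ± 0.13), is uncertain because the strand setting of the counting is not given in the sources used here.

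Cytosolic heat shock genes, which encode chaperones under HSF1, were mostly higher, by small amounts. Of 16 tested genes 13 were higher and 0 lower, with a median of 0.19. HSPA4L, an HSP110 member, moved from 23.8, 20.3 and 23.3 to 37.6, 39.8 and 35.3 CPM, and HSPH1 from 295, 296 and 298 to 408, 428 and 424 CPM (log2 fold changes 0.74 ± 0.065 and 0.50 ± 0.026). HSPA1A and HSPA1B, near-identical copies whose reads may be split between them, rose by 1.07 ± 0.23 and 0.79 ± 0.11. The cochaperones BAG3 and DNAJB1 rose by 0.48 ± 0.046 and 0.25 ± 0.029, and the abundant HSPA8 and HSP90AA1 by 0.16 ± 0.018 and 0.17 ± 0.020. CHORDC1, an HSP90 cochaperone, moved from 115 ± 2.79 to 137 ± 4.59 CPM (n = 3; log2 fold change 0.26 ± 0.034). Its promoter window is shown because it holds overlapping copies of a heat shock element. The window is chr11:90223020-90223299 on the minus strand (RefSeq, GRCh38.p14), and capitals mark the blocks GAA, TTC and GAA, each 2 bases from the next, or the same on the other strand, in overlapping matches.
CHORDC1: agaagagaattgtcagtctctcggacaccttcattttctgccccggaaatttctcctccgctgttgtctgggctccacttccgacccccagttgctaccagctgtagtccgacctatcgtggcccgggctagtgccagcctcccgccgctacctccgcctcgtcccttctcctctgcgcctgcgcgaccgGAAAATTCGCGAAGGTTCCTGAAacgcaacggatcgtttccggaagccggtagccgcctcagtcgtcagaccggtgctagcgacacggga
This arrangement was found in 3 of 15 windows of tested heat shock genes matched by symbol (DNAJA1, CHORDC1 and HSPA8) and in 0.487% of all windows. HSF1 itself did not pass the test (144 ± 0.276 against 149.5 ± 3.61 CPM).

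Members of the ATF4 integrated stress response, which cells use when translation initiation is curbed, were more often higher than lower. ATF3 stood at 23.6, 25.1 and 24.8 CPM in vehicle and 65.8, 75.2 and 71.9 CPM with iMDK (log2 fold change 1.53 ± 0.050). TRIB3, SESN2, CHAC1 and PPP1R15A rose by 0.71 ± 0.034, 0.68 ± 0.036, 0.60 ± 0.087 and 0.54 ± 0.036. Of 22 tested members of 25, 13 were higher, 2 were lower and 7 did not pass, with a median of 0.26. ASNS, ATF5 and PCK2 were listed at 0 in every library and not tested. Chaperones of the endoplasmic reticulum went the other way. None of 18 was higher and 13 were lower (median -0.15). The disulphide isomerase PDIA4 moved from 895, 905 and 876 to 622, 649 and 643 CPM, and HSP90B1, the HSP90 of this compartment, from 1157, 1159 and 1151 to 848, 843 and 851 CPM (log2 fold changes -0.48 ± 0.024 and -0.45 ± 0.022). CALR, HSPA5 and XBP1 fell (log2 fold changes -0.34 ± 0.022, -0.11 ± 0.020 and -0.25 ± 0.029). HERPUD1, a sensitive marker of the unfolded protein response, did not pass (0.058 ± 0.038).

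Targets of p53 rose almost without exception. Of 22 tested targets 21 were higher and 0 lower, and the median was 0.52. GDF15, a secreted stress hormone, moved from 83.8, 83.03 and 83.1 to 181, 179 and 178 CPM (log2 fold change 1.11 ± 0.035, edgeR adjusted p = 8.7e-28). MDM2, which marks p53 for degradation, moved from 188, 192 and 189 to 346, 369 and 361 CPM (log2 fold change 0.92 ± 0.028). CDKN1A, the cell cycle inhibitor p21, stood at 151, 149 and 139 CPM in vehicle and 215, 226 and 222 CPM with iMDK (log2 fold change 0.60 ± 0.033). The death receptor FAS, the ferredoxin reductase FDXR and the RNA-binding ZMAT3 rose by 0.87 ± 0.070, 0.74 ± 0.038 and 0.68 ± 0.033. In the BCL2 family, which sets the threshold of apoptosis, 7 of 12 tested genes were higher and 1 was lower. The rises included the killers BIK, PMAIP1, BBC3 and BAX (1.41 ± 0.20, 0.79 ± 0.089, 0.51 ± 0.057 and 0.26 ± 0.031) and the protectors MCL1 and BCL2L1 (0.19 ± 0.027 and 0.16 ± 0.032), and BMF fell by 0.56 ± 0.036. Genes of autophagy and the lysosome were higher in 11 of 15 cases, among them CTSL, LAMP1, TFE3 and GABARAPL1 (0.62 ± 0.024, 0.41 ± 0.024, 0.41 ± 0.046 and 0.38 ± 0.033). TFEB, the close relative of TFE3, fell from 8.203, 10.2 and 10.1 to 4.94, 6.87 and 6.796 CPM. Proteasome subunits barely moved, with 6 of 18 higher, 1 lower and a median of 0.041.

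**Figure D3:**
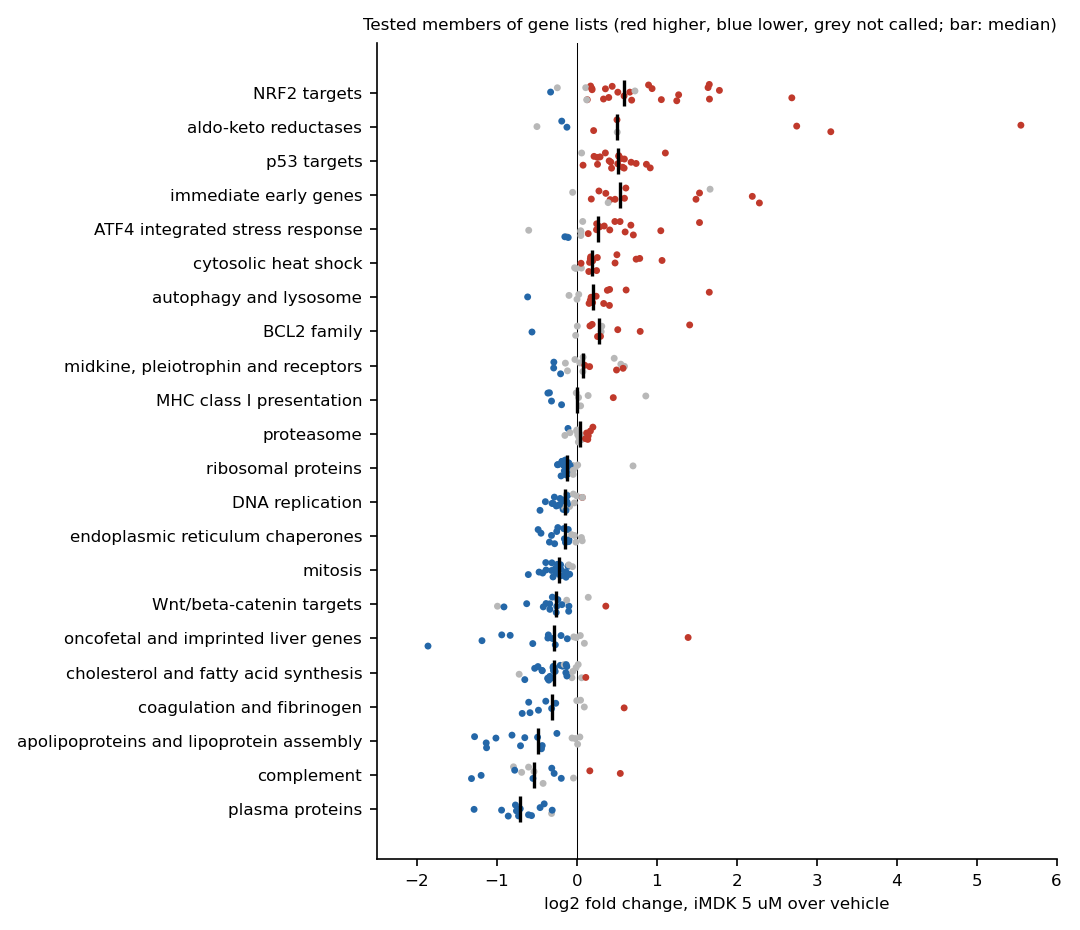
Log2 fold change of 5 uM iMDK over vehicle (horizontal) for the tested members of 22 gene lists (vertical) in Huh6 cells. Each point is a gene, red if called higher, blue if called lower and grey if not called, and the black bar is the list's median, which runs from 0.59 for NRF2 targets to -0.71 for plasma proteins.

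Proliferation genes were mostly lower, by small amounts. In the mitosis list 26 of 28 tested genes were lower and 0 higher (median -0.22). UBE2C, the ubiquitin-conjugating enzyme of the anaphase-promoting complex, moved from 46.3, 42.3 and 42.3 to 29.4, 28.01 and 28.6 CPM (log2 fold change -0.61 ± 0.055). The kinesin KIF20A and the topoisomerase TOP2A fell (log2 fold changes -0.47 ± 0.030 and -0.43 ± 0.023), and MKI67 fell too (-0.13 ± 0.038), which was no longer called without iMDK library 1 (-0.10), without iMDK library 2 (-0.094) or with DESeq2. In the DNA replication list 17 of 25 were lower and 1 was higher (median -0.15). CDT1, which licenses origins, fell by 0.46 ± 0.034 and the helicase subunits MCM3 and MCM4 (-0.29 ± 0.027 and -0.26 ± 0.023). Among G1 regulators CCND3 rose with CDKN1A (0.40 ± 0.057), while CDKN1B, E2F2 and RBL2 fell (-0.34 ± 0.028, -0.38 ± 0.076 and -0.42 ± 0.069); 2 of 17 in that list were higher and 9 lower. Ribosomal protein genes were lower in 21 of 28 cases and higher in 0 (median -0.13), with RPL13A and RPL10 lowest (-0.24 ± 0.019 and -0.24 ± 0.024). RPL5 was near 0 in every library (27 and 45 counts over 3 libraries), beside RPL15 and RPS4X, which were listed at 0.

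Targets of beta-catenin were mostly lower, whereas beta-catenin RNA did not pass the test. CTNNB1 stood at 798 ± 3.09 CPM in vehicle and 783 ± 6.84 CPM with iMDK (log2 fold change -0.027 ± 0.021). Of 17 tested targets 13 were lower and 1 was higher, MYC, with a median of -0.26. NOTUM, a secreted enzyme that inactivates Wnt ligands, stood at 22.1, 22.6 and 22.2 CPM in vehicle and 13.1, 12.2 and 10.2 CPM with iMDK (log2 fold change -0.91 ± 0.085, edgeR adjusted p = 4.9e-12). The feedback inhibitors NKD1, from 325, 332 and 326 to 247, 245 and 243 CPM, and AXIN2, from 199, 202 and 206 to 169, 176 and 171 CPM, fell less (log2 fold changes -0.42 ± 0.027 and -0.24 ± 0.028). The antagonists APCDD1 and DKK1 fell (log2 fold changes -0.63 ± 0.12 and -0.34 ± 0.024), as did the partner LEF1 (-0.25 ± 0.061). LGR5, the R-spondin receptor, did not pass (28.6, 29.1 and 29.3 against 34.3, 30.8 and 30.98 CPM) but was called higher without iMDK library 2 (log2 fold change 0.17), when scaled by library totals only (0.16) and with the stricter low count filter (0.14). SP5 was listed at 0 in all 6 libraries. Ligands of the pathway diverged. WNT8A (chromosome 5, 138083892 to 138092365, plus strand, GRCh38) stood at 89.7, 86.1 and 96.3 CPM in vehicle and 27.1, 25.4 and 30.2 CPM with iMDK (log2 fold change -1.72 ± 0.056), and WNT5B fell from 287, 291 and 274 to 137, 139 and 132 CPM (log2 fold change -1.06 ± 0.032). WNT5A, the other member of the WNT5 pair, rose from 85.7, 81.7 and 88.1 to 159, 159.6 and 161 CPM (log2 fold change 0.91 ± 0.039). Over the 32 tested of 32 pathway components 7 were higher and 8 lower, beside 17.3% and 18.3% of all genes tested.

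Oncofetal genes of the liver were mostly lower. IGF2 (chromosome 11, 2129112 to 2149603, minus strand, GRCh38), the fetal growth factor, stood at 348, 351 and 363 CPM in vehicle and 155, 150.04 and 162 CPM with iMDK (log2 fold change -1.19 ± 0.031, edgeR adjusted p = 1.7e-30). H19, the non-coding RNA of the same imprinted locus, fell from 1.801, 1.43 and 1.86 to 0.197, 0.852 and 0.345 CPM (log2 fold change -1.86 ± 0.38). HMGA2, a chromatin protein of fetal growth, moved from 620.5, 623 and 640.3 to 355, 349 and 354 CPM, and PEG10, an imprinted gene derived from a retrotransposon, from 936, 938 and 921 to 632, 620.3 and 657 CPM (log2 fold changes -0.83 ± 0.024 and -0.55 ± 0.023). AFP stood at 60.3, 62.7 and 70.2 CPM in vehicle and 33.6, 31.9 and 35.3 CPM with iMDK. GPC3 stood at 2159, 2128 and 2129.9 and 1674, 1669.6 and 1672 CPM (log2 fold change -0.36 ± 0.020). The regulators LIN28B and SALL4 fell (log2 fold changes -0.36 ± 0.045 and -0.27 ± 0.034), whereas the mRNA-binding IGF2BP1 and IGF2BP3 did not pass (-0.038 ± 0.027 and 0.044 ± 0.045). Of 16 tested members 11 were lower and 1 was higher, MEST, with 4, 2 and 5 counts in vehicle and 9, 13 and 8 with iMDK. The call of MEST was lost whichever of the 6 libraries was left out, with limma-voom and without the low count filter. In the IGF axis the receptors IGF1R and IGF2R rose by 0.28 ± 0.062 and 0.55 ± 0.054. Beside IGF2, the genes called lower were IGF1, IGFBP1, IGFBP4 and INSR (log2 fold changes -1.23, -0.49, -0.34 and -0.17). Of 11 tested members of that axis 3 were higher and 5 lower (3 to 4 when 1 library was left out). The list of hepatoblastoma markers, which shares members with these lists, held 12 lower and 2 higher genes of 17, the higher ones being the keratins KRT8 and KRT18.

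Secreted plasma proteins of the hepatocyte were lower. Of 13 tested members 12 were lower and 0 higher, with a median of -0.71; the other members of the 24 had too few counts to be tested, AHSG and RBP4 being listed at 0. TF, the iron carrier transferrin, stood at 1472, 1499 and 1479 CPM in vehicle and 904, 880.3 and 941 CPM with iMDK (log2 fold change -0.71 ± 0.028). SERPINA1, the protease inhibitor alpha-1-antitrypsin, stood at 1909.5, 1937 and 1972 and 1326, 1294 and 1310.3 CPM (log2 fold change -0.57 ± 0.024). The hyaluronan-binding chains ITIH2 and ITIH3 fell (log2 fold changes -0.94 ± 0.071 and -1.28 ± 0.25). ORM1 and ORM2, near-identical acute phase genes whose reads may be split, fell (log2 fold changes -0.60 ± 0.051 and -0.77 ± 0.069). ALB, at 3.65, 2.65 and 2.27 CPM in vehicle and 2.02, 2.31 and 2.56 CPM with iMDK, did not pass. Coagulation factors F7, F2 and PROC fell (log2 fold changes -0.68 ± 0.060, -0.60 ± 0.028 and -0.59 ± 0.049). In that list 7 of 11 were lower and 1 was higher, F12 (log2 fold change 0.59 ± 0.20), which was no longer called without vehicle library 1 (0.48) or iMDK library 3 (0.55).

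Most apolipoproteins were lower as well. APOM, the carrier of sphingosine 1-phosphate on lipoproteins, stood at 84.2, 80.9 and 84.5 CPM in vehicle and 34.7, 33.03 and 35.2 CPM with iMDK (log2 fold change -1.28 ± 0.045). APOA5, MTTP, which loads lipid onto nascent particles, and APOC3 fell (log2 fold changes -1.13 ± 0.066, -1.01 ± 0.11 and -0.70 ± 0.041). The abundant APOB (4312 ± 49.2 against 4138 ± 320.1 CPM) and APOE (1999.7 ± 113 against 1973 ± 43.9 CPM) did not pass. The list held 11 lower and 0 higher genes of 15 (median -0.49). Complement C3 stood at 59.7, 61.5 and 62.1 CPM in vehicle and 25.03, 22.6 and 25.95 CPM with iMDK, and C5, MASP2 and the C1 inhibitor SERPING1 were lower (log2 fold changes -1.32 ± 0.056, -0.55 ± 0.042, -1.20 ± 0.17 and -0.78 ± 0.078). CLU, an extracellular chaperone that restrains complement, rose by 0.54 ± 0.040. Complement genes were lower in 7 and higher in 2 of 15 cases.

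Liver-enriched transcription factors had a median log2 fold change of -0.19. HNF4A stood at 338, 334 and 339 CPM in vehicle and 296, 299 and 294 CPM with iMDK (log2 fold change -0.19 ± 0.027), and FOXA1 and FOXA2 fell (log2 fold changes -0.24 ± 0.029 and -0.23 ± 0.038). Of 20 tested factors 9 were lower and 1 was higher. SLC10A1, the sodium-dependent bile acid importer, fell from 26.6, 25.4 and 29.2 to 13.8, 14.4 and 11.7 CPM (log2 fold change -1.03 ± 0.086), while the exporters ABCC2, ABCC3 and ABCC4 rose (0.17 ± 0.032, 0.33 ± 0.090 and 0.36 ± 0.077). In the urea cycle CPS1 and ASL fell (log2 fold changes -0.43 ± 0.041 and -0.40 ± 0.041), and 6 of 10 tested genes of the list were lower and 1 was higher. Cytochromes of family 4 split, CYP4F11 rising from 27.5, 23.9 and 27.7 to 79.4, 82.2 and 75.9 CPM and CYP4F12 falling from 16.3, 16.1 and 17.3 to 7.95, 7.32 and 9.603 CPM (log2 fold changes 1.59 ± 0.052 and -0.995 ± 0.095); these are close paralogues. Of 10 tested drug-metabolising cytochromes 2 were higher and 2 lower, near the shares of 17.3% and 18.3% among all genes tested. CYP1A1 (chromosome 15, 74719542 to 74725610, minus strand, GRCh38), the classical target of the aryl hydrocarbon receptor, stood at 62.9, 66.9 and 66.8 CPM in vehicle and 22.02, 19.5 and 22.6 CPM with iMDK (log2 fold change -1.61 ± 0.060, edgeR adjusted p = 3.5e-25). TIPARP, another target of that receptor, did not pass (67.05 ± 0.651 against 65.6 ± 3.72 CPM), and 1 of 7 members of that list were higher and 3 lower (1 to 2 when 1 library was left out). In the bile acid list 4 of 14 were higher and 5 lower, and the largest change was a rise of ABCB11 (log2 fold change 2.19). With the stricter low count filter 3 of 9 genes of that list were higher and 5 lower.

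Metal handling changed on both sides. Metallothioneins MT1F, from 17.8, 20.4 and 18.6 to 5.78, 4.56 and 5.96 CPM, MT1G, from 9.103, 8.22 and 10.02 to 2.47, 2.96 and 2.81 CPM, and MT2A fell (log2 fold changes -1.80 ± 0.099, -1.73 ± 0.15 and -0.66 ± 0.074); these are close paralogues among which the counting could divide reads. The zinc exporter SLC30A1, which like them answers to metal, rose by 0.11 ± 0.036, the only called rise among 8 tested members, and was no longer called without vehicle library 2 (0.095) or iMDK library 2 (0.076). BMP6, which signals iron load to hepatocytes, rose from 11.6, 11.9 and 9.97 to 36.03, 37.3 and 33.9 CPM, and the iron exporter SLC40A1 from 31.01, 33.5 and 28.5 to 57.8, 58.3 and 57.9 CPM (log2 fold changes 1.68 ± 0.070 and 0.90 ± 0.061). The transferrin receptor TFRC rose by 0.58 ± 0.025 and its hepatic relative TFR2 fell by 1.07 ± 0.16. Hepcidin, HAMP, had 9 counts in the vehicle libraries and 8 with iMDK and was not tested. Of 14 tested genes of iron handling 6 were higher and 6 lower.

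Genes of cholesterol and fatty acid synthesis, which SREBP factors control, were lower in 22 of 31 cases and higher in 1 (median -0.28). HMGCS1, which commits acetyl units to the pathway, moved from 290.1, 312 and 301 to 211, 218 and 216 CPM, and FADS2 from 120.4, 118 and 119 to 82.7, 80.8 and 84.8 CPM (log2 fold changes -0.49 ± 0.028 and -0.53 ± 0.040). INSIG1, the brake of the pathway, fell too (log2 fold change -0.43 ± 0.053). CYP51A1 was near 0 in every library (31 and 19 counts over 3 libraries), and EBP and FADS1 were listed at 0. In the list of fatty acid oxidation 8 of 17 were lower and 2 higher, counts that ran over 4 to 6 and 0 to 2 when 1 library was left out. FABP1, the fatty acid carrier of hepatocytes, fell from 22.2, 18.9 and 22.9 to 10.96, 9.27 and 10.6 CPM. Hypoxia and glycolysis genes were lower in 10 and higher in 4 of 20 cases, SLC2A1 rising by 0.42 ± 0.031 and PFKFB4 falling by 0.57 ± 0.089.

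Many immune genes were too low to be tested. Counts of called members in their lists stand beside 17.3% higher and 18.3% lower, 35.6% in all, among all genes tested. Of 29 interferon-stimulated genes 16 had enough counts to be tested, 4 were higher and 3 lower (1 to 2 when 1 library was left out). Their log2 fold changes ran from -1.02 to 4.08. With the stricter low count filter 2 of 6 were higher and 2 lower. The members named next are among those that rose. DDX60 had 0, 2 and 1 counts in vehicle and 18, 21 and 19 with iMDK, a ratio of 19.2 (95% interval 6.24 to 95.6, counting error only). OASL had 2, 1 and 0 counts in vehicle and 5, 9 and 14 with iMDK. ISG15 moved from 12.5, 12.4 and 11.99 to 22.02, 24.3 and 19.99 CPM (log2 fold change 0.85 ± 0.084). In MHC class I presentation B2M, the shared light chain, rose from 61.6, 65.5 and 65.03 to 86.98, 89.00 and 87.6 CPM (log2 fold change 0.46 ± 0.045), while the trimming peptidase ERAP1 fell by 0.36 ± 0.062. Of 10 tested genes of that list 1 was higher and 4 lower. In the list of chemokines and cytokines 14 of 29 members were tested, 5 were higher and 1 was lower. The chemokine CXCL12 fell from 10.7, 10.1 and 10.9 to 4.89, 3.31 and 3.398 CPM (log2 fold change -1.44 ± 0.16). The macrophage growth factor CSF1 rose from 39.6, 41.7 and 40.00 to 76.7, 75.6 and 75.99 CPM, IL32 from 26.7, 25.8 and 26.9 to 55.8, 55.6 and 53.4 CPM and the cytokine LIF from 14.01, 13.7 and 14.1 to 20.4, 22.5 and 20.3 CPM (log2 fold changes 0.91 ± 0.047, 1.05 ± 0.052 and 0.60 ± 0.080). CSF1R, the receptor of CSF1, also rose, from 10.7, 10.4 and 12.3 to 31.5, 34.3 and 30.1 CPM (log2 fold change 1.52 ± 0.075), in libraries in which PTPRC and TYROBP were at or near 0. The macrophage list held 8 tested genes of 14, 3 higher and 2 lower, and its summed level was 193 to 200.1 CPM in vehicle and 155 to 158 CPM with iMDK. ITGAX, a myeloid integrin, rose from 0.1000, 0.255 and 0.302 to 2.52, 1.604 and 1.23 CPM. CD74, which held most of the summed level of the macrophage list, fell from 163, 157 and 156 to 100.5, 98.98 and 104 CPM. Of 13 tested checkpoint and immune ligands CD47, a signal against engulfment, rose by 0.31 ± 0.062 and CD276 fell by 0.29 ± 0.027, and no other was called; CD274 had 0 and 2 counts over 3 libraries.

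FN1, which encodes fibronectin, stood at 8147, 8116 and 8009 CPM in vehicle and 12227, 12679 and 13934 CPM with iMDK, the largest rise in CPM of the genes tested (log2 fold change 0.68 ± 0.041). COL2A1, the chain of type II collagen, stood at 8530.3, 8514 and 8404 and 6307, 6392 and 6486 CPM, the largest fall in CPM (log2 fold change -0.41 ± 0.021). CPM are not corrected for transcript length, so this order favours long transcripts. The actin-binding TAGLN moved from 9.35, 9.14 and 9.97 to 36.5, 39.2 and 40.7 CPM, FLNC, filamin C, from 411, 417 and 377 to 746, 767 and 796 CPM, and ACTB rose by 0.24 ± 0.020. The TGF-beta target PMEPA1 moved from 0.4001, 0.306 and 0.655 to 2.07, 1.604 and 1.63 CPM. The YAP and TEAD targets ANKRD1 and CCN1 rose by 1.11 ± 0.031 and 0.48 ± 0.030, whereas YAP1 itself fell by 0.40 ± 0.027; 9 of 19 tested genes of that list were higher and 4 lower. ID1 and SMAD6, targets of BMP signalling, fell (log2 fold changes -0.25 ± 0.028 and -0.45 ± 0.053), and 7 of 16 tested TGF-beta and BMP targets were higher and 6 lower. The keratins KRT8 and KRT18 rose by 0.066 ± 0.020 and 0.11 ± 0.023, KRT8 no longer called without iMDK library 2 (0.051), and CDH1 did not pass (-0.033 ± 0.024). Epithelial and mesenchymal markers were higher in 9 and lower in 4 of 20 cases. COL1A2 and PDGFRB, otherwise markers of stellate cells and fibroblasts, fell (log2 fold changes -0.68 ± 0.033 and -0.89 ± 0.046), and their list had 4 of 10 members tested. The endothelial marker PECAM1 stood at 146, 142 and 137 CPM in vehicle and 112, 106 and 108 CPM with iMDK, whereas KDR, TEK and ERG had 2, 9 and 4 counts over the vehicle libraries. These markers and those of macrophages are given as levels of the line; a part of other cells in the results was not tested. The translation factors EEF2 and PABPC1 fell (log2 fold changes -0.15 ± 0.017 and -0.28 ± 0.017), and CES1 and CHI3L1 were among the largest rises in CPM (log2 fold changes 0.74 ± 0.023 and 0.28 ± 0.021).

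Among the genes with the lowest log2 fold changes, PLCB4, a phospholipase C, fell from 7.803, 9.44 and 8.46 to 2.12, 2.56 and 2.07 CPM (log2 fold change -1.93 ± 0.15). The glutamate transporter SLC1A2 fell from 47.7, 51.1 and 49.2 to 20.7, 17.9 and 17.6 CPM, the proline transporter SLC6A7 from 7.303, 8.32 and 7.15 to 2.02, 2.91 and 3.55 CPM and the semaphorin SEMA6B from 95.7, 114 and 106 to 39.98, 32.9 and 41.2 CPM. PADI2, which converts arginine to citrulline in proteins, SUSD2 and WFIKKN1 fell (log2 fold changes -1.60 ± 0.13, -1.37 ± 0.072 and -1.35 ± 0.073). Groups that do not overlap were part of the rule that chose these genes, and 44.9% of all genes tested met that condition.

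The dose test compared 10 uM with 5 uM iMDK, 3 libraries against 3, and shares the 5 uM libraries with the comparison above. At 10 uM 1906 genes were higher than at 5 uM (12.7%) and 1838 were lower (12.2%), a split that moved to 1496 higher and 2224 lower with upper-quartile scaling. Among genes with a mean log2 CPM of at least 2, EGR1 showed the largest further rise, with 46.5, 46.3 and 50.1 CPM at 10 uM (log2 fold change 1.77 ± 0.071 over 5 uM). NPPB, MAFF and SOCS2 also rose further, with log2 fold changes of 1.53 ± 0.081, 1.40 ± 0.091 and 1.36 ± 0.043. JCAD, which encodes a protein of endothelial junctions, rose by 0.47 ± 0.12 from vehicle to 5 uM and by 1.37 ± 0.094 from 5 to 10 uM. TXNRD1 stood at 1922, 1904 and 1932 CPM at 10 uM, 2.40 above vehicle on the log2 scale beside 1.78 at 5 uM. MDK stood at 324, 315 and 317 CPM at 10 uM (-0.43 against vehicle beside -0.29 at 5 uM). NQO1, by contrast, was at 27.8 CPM at 5 uM and 27.4 CPM at 10 uM (log2 fold change -0.017 ± 0.074, not called), and CPLX2 at 86.9 and 84.1 CPM (-0.048 ± 0.044, not called).

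By gene list, 16 of 16 heat shock genes, 11 of 14 immediate early genes and 11 of 15 MAPK feedback genes were higher at 10 than at 5 uM, beside 12.7% of all genes, and none was lower. HSPA1B reached 22.4, 21.4 and 19.9 CPM and DNAJB1 302, 308 and 304 CPM at 10 uM. ETV5 and DUSP6, which fell at 5 uM, were higher at 10 uM than at 5 uM (log2 fold changes 0.93 ± 0.061 and 0.49 ± 0.036), with ETV5 at 33.3 ± 1.41, 25.1 ± 1.89 and 47.8 ± 1.22 CPM at 0, 5 and 10 uM. Targets of p53 went both ways from 5 to 10 uM. Of 22 targets 7 were higher and 4 lower, beside 12.7% and 12.2% of all genes, with a median of -0.0030. Within that list GDF15 rose again to 339, 325 and 348 CPM (log2 fold change 0.91 ± 0.031), and FAS did not pass (-0.0086 ± 0.064). Plasma proteins were lower again, 12 of 13 lower at 10 than at 5 uM (median -0.51), as did 22 of 28 mitosis genes (median -0.15). SLC10A1 had the largest further fall, to 5.72, 4.01 and 5.49 CPM (log2 fold change -1.39 ± 0.11), followed by LBP, FRMD1 and PKLR. LBP, the lipopolysaccharide-binding protein, was not called at 5 uM (-0.21 ± 0.20) and changed by -1.37 ± 0.24 from 5 to 10 uM, where it was called lower. PKLR, the liver pyruvate kinase, fell in both steps (log2 fold changes -1.08 ± 0.14 and -1.25 ± 0.18).

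Some genes were called in opposite directions in the vehicle to 5 uM and the 5 to 10 uM steps. MT2A stood at 18.01, 21.1 and 19.4 CPM in vehicle, 11.9, 12.7 and 12.4 CPM at 5 uM and 21.4, 18.3 and 17.7 CPM at 10 uM, so that its level at 10 uM was near that in vehicle (log2 fold change -0.026 ± 0.068). MT1G fell to 2.74 ± 0.2504 CPM and was 4.099 ± 1.17 CPM at 10 uM, still below vehicle (log2 fold change -1.15 ± 0.14). CEMIP, a hyaluronan-degrading protein, was 8.01 ± 0.652, 4.94 ± 0.0681 and 8.13 ± 1.28 CPM at 0, 5 and 10 uM. TMEM229B and DNAH2 went up and then down, TMEM229B with 3.31 ± 0.262, 5.64 ± 0.844 and 3.11 ± 0.2204 CPM. Both steps share the 5 uM libraries, so their signs are not independent.

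**Figure D4:**
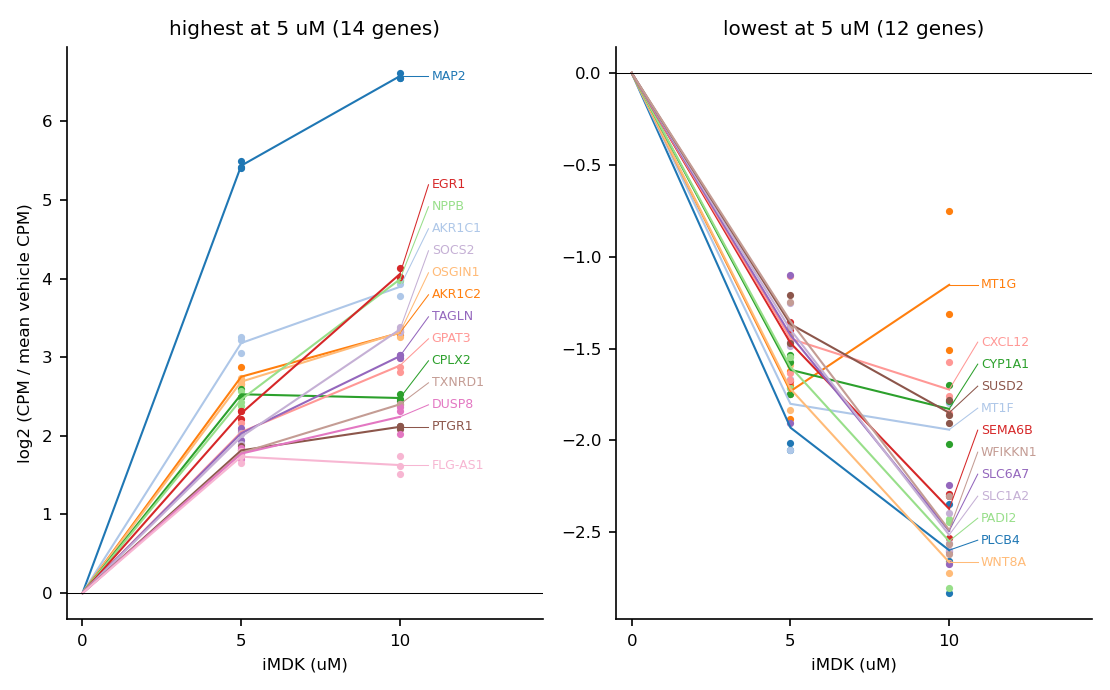
Log2 of CPM over the mean vehicle CPM (vertical) at 0, 5 and 10 uM iMDK (horizontal) in Huh6 cells, for 14 of the 15 genes with the highest (left) and 12 of the 15 with the lowest (right) log2 fold change at 5 uM. Points are libraries and lines join the means of 3; EGR1 and SOCS2 climb further at 10 uM, CPLX2 does not (86.9 and 84.1 CPM), and MT1G turns back.

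The test of line asked whether the response to 5 uM iMDK differed in HepG2, a second hepatoblastoma-derived line, as the interaction of line and treatment over 12 libraries. Of 15431 genes tested, 2403 changed more positively in HepG2 (15.6%) and 2621 more negatively (17%). AKR1C1, AKR1C2 and CPLX2 changed more positively in Huh6. CPLX2 changed by 2.53 in Huh6 and by 0.046 in HepG2 (difference -2.47 ± 0.061). AKR1C2 changed by 2.75 and 0.46 (difference -2.27 ± 0.086), and AKR1C1 by 3.18 and 0.99 (difference -2.17 ± 0.11), from vehicle levels of 1.82 CPM in Huh6 and 575 CPM in HepG2. TAGLN changed by 2.03 and 0.016 (difference -2.001 ± 0.096). TXNRD1 changed by 1.78 and 1.23 (difference -0.54 ± 0.040), and SQSTM1 by 1.66 and 1.82 (difference 0.17 ± 0.039). The difference between lines was not called for MAP2 (5.42 and 5.11, difference -0.29 ± 0.67). MDK changed by -0.29 in Huh6 and -0.19 in HepG2 (difference 0.12 ± 0.042, edgeR adjusted p = 0.033), and this difference was no longer called under 12 of its 21 alternative settings.

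By list, every one of the 28 mitosis and 25 DNA replication genes had a more negative change in HepG2, beside 17% of all genes, with median changes of -0.22 and -0.15 in Huh6 and -1.18 and -1.25 in HepG2. TOP2A, for example, changed by -0.43 in Huh6 and -1.70 in HepG2 (difference -1.26 ± 0.038). Cholesterol and fatty acid synthesis genes had a median of -0.28 in Huh6 and 0.53 in HepG2, and 26 of 31 were more positive in HepG2, beside 15.6% of all genes. HMGCS1 changed by -0.49 and 1.07 (difference 1.57 ± 0.049). Interferon-stimulated genes were more positive in HepG2 in 13 of 15 cases; ISG15 changed by 0.85 in Huh6 and 4.005 in HepG2 (difference 3.17 ± 0.091). TUSC3 and KLHDC7B had among the largest differences, TUSC3 with 101 and 86.7 CPM in Huh6 and 0.417 and 8.06 CPM in HepG2 (difference 4.45 ± 0.22) and KLHDC7B with 4.501 and 4.85 CPM against 3.96 and 87.1 CPM (difference 4.37 ± 0.22). Heat shock genes were more negative in HepG2 in 13 of 16 cases, aldo-keto reductases in 7 of 9 and NRF2 targets in 15 of 27, with 5 NRF2 targets more positive. MT2A changed by -0.66 in Huh6 and 1.24 in HepG2 (difference 1.91 ± 0.082), and CYP1A1 by -1.61 and 0.020 (difference 1.65 ± 0.12). The labels give HepG2 a higher number of cells seeded per well, so line and seeding cannot be told apart.

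**Figure D5:**
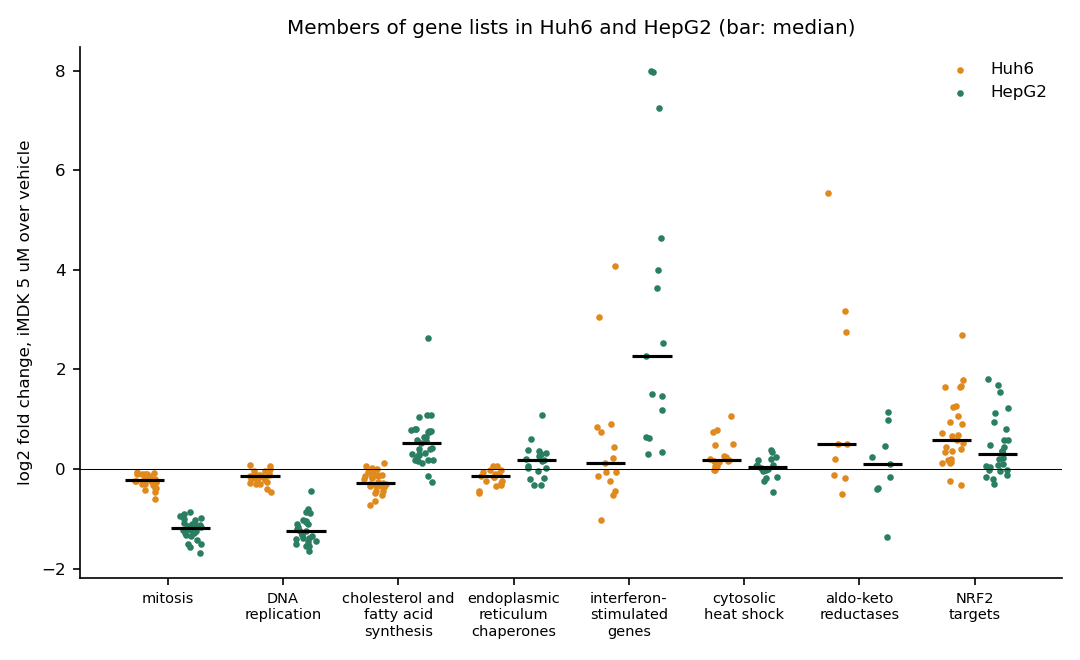
Log2 fold change of 5 uM iMDK over vehicle (vertical) for the members of 8 gene lists (horizontal) that were tested for a difference between lines, in Huh6 (orange) and HepG2 (green). Each point is a gene and each black bar a median; the medians of the mitosis list are -0.22 in Huh6 and -1.18 in HepG2.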

How the data were processed

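RNA was sequenced in bulk from Huh6 cells, and the deposited table holds whole-number counts of reads per gene for 52 libraries, not normalised. Per the submitters' processing notes the authors used GRCh38, STAR 2.7.3a, SAMtools 1.16.1, featureCounts and edgeR 3.36; no source used here gives the annotation release, the strand setting or the version of featureCounts. Of 62696 genes, those passing edgeR's filterByExpr (minimum count 10) over all 6 Huh6 treatment groups (18 libraries, which share 1 estimate of spread) were tested with edgeR 4.0.16 (limma 3.58.1, R 4.3.3): TMM scaling, glmQLFit and glmQLFTest, Benjamini-Hochberg adjustment over all genes, threshold 0.05. CPM use TMM-scaled library sizes. The line test is the interaction in a fit on 12 libraries. SE is the log2 fold change divided by the root of F. The script was tested on simulated data.

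Named genes are the 15 called genes with the highest and lowest log2 fold change at mean log2 CPM of at least 2 and no overlap between groups, the 8 largest CPM changes each way, 6 per direction for dose and line (5 with opposite steps), any member of lists of up to 20 genes and up to 6 called members of longer lists, plus a fixed set around midkine and Wnt; some of these genes are not reported here. The other genes of longer lists (ABCC2, ABCC3, AHSG, ASNS, ATF5, CD274, CDH1, CYP51A1, DKK1, EBP, FADS1, ME1, ORM1, PCK2, PIR, RPL5, RPL15, RPS4X, SLC6A6, SP5 and SRXN1) were chosen after their values were seen. The comparison, the lists and these rules were chosen with earlier results of these data known. Alternatives were other scalings (RLE, upper quartile, library totals), filters, DESeq2 (1.42.0), limma-voom, other sets of libraries in the fit, leaving out each library and a replicate block. Same-numbered libraries did not deviate together, so numbers were not treated as pairs. Gene positions are from GENCODE on GRCh38, and promoter windows from RefSeq.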

Additional observations from a re-analysis of the deposited data

Results flagged for a closer look

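These genes responded differently to 5 uM iMDK in HepG2 and Huh6 by the interaction test of edgeR, and they are the ones named above for that test; values are HepG2 minus Huh6 in log2 fold change. The more negative in HepG2 were CPLX2 (-2.47 ± 0.061), AKR1C2 (-2.27 ± 0.086), AKR1C1 (-2.17 ± 0.11), TAGLN (-2.001 ± 0.096), TOP2A (-1.26 ± 0.038) and TXNRD1 (-0.54 ± 0.040). The more positive in HepG2 were TUSC3 (4.45 ± 0.22), KLHDC7B (4.37 ± 0.22), ISG15 (3.17 ± 0.091), MT2A (1.91 ± 0.082), CYP1A1 (1.65 ± 0.12), HMGCS1 (1.57 ± 0.049), SQSTM1 (0.17 ± 0.039) and MDK (0.12 ± 0.042). The MDK difference was no longer called under 12 of the alternative settings. Vehicle levels differed widely for AKR1C2, at 7.57 CPM in Huh6 and 357 CPM in HepG2, and for CPLX2, at 15.1 and 524 CPM, whereas TOP2A stood at 710.3 and 709 CPM and HMGCS1 at 301 and 178 CPM. MT2A stood at 19.5 CPM in Huh6 vehicle and 96.8 CPM in HepG2 vehicle.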

How the results depend on the processing

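Alternative settings left the counts of called genes within 1.5 times, except that a minimum of 50 counts gave 127 genes at least 2-fold higher and 87 at least 2-fold lower, since it tests fewer genes. Leaving out each library in turn gave 2332 to 2409 genes higher and 2371 to 2464 lower at 5 uM, 224 to 240 and 185 to 207 of them by 2-fold, 1576 to 1692 higher and 1550 to 1636 lower from 5 to 10 uM, and 2015 to 2252 more positive and 2433 to 2798 more negative in HepG2. The replicate block gave 2582 higher and 2742 lower at 5 uM, 1874 and 1827 for dose, and 2319 more positive and 2560 more negative for line; the deviations of same-numbered vehicle and iMDK libraries correlated at -0.068, -0.002 and 0.011, and the other pairs ran from -0.052 to 0.051. Of 3830 values of named genes at 5 uM under the alternatives, 3802 kept direction and side of the threshold, 19 lost the call, 5 gained one and 4 changed sign. MEST was also no longer called with the replicate block, and had no adjusted p with DESeq2, the stricter filter or the fit on the 2 groups alone. Counts of 3 or fewer called members of a list moved by at most 2 when 1 library was left out. Over all comparisons the sign changed, when 1 library was left out, only for named values that did not pass the test, which then ran over these ranges: APOE at 5 uM (-0.057 to 0.026), LRP1 at 5 uM (-0.11 to 0.12), TIPARP at 5 uM (-0.065 to 0.015), FAS from 5 to 10 uM (-0.048 to 0.033), NQO1 from 5 to 10 uM (-0.054 to 0.037) and MT2A from vehicle to 10 uM (-0.12 to 0.038). The cause was not tested. Depth limits the low genes, since 3 counts correspond to 0.151 to 0.155 CPM.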

Other observations

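Genes of energy supply encoded in the mitochondrial genome changed little. Of 13 tested genes 4 were lower and 0 higher (median log2 fold change -0.051), and the number lower ran from 0 to 6 over the alternative settings. In the PI3K, AKT and FOXO axis 7 of 19 were lower and 3 higher, beside 18.3% and 17.3% of all genes tested. KLF6, a stress-responsive factor, rose from 63.4, 65.3 and 65.99 to 118, 126 and 123 CPM, while TXNIP, which binds thioredoxin, fell from 10.5, 9.901 and 11.5 to 6.37, 5.21 and 6.21 CPM (log2 fold changes 0.91 ± 0.036 and -0.84 ± 0.12). FOXO4 and CCNG2 fell by 0.53 ± 0.066 and 0.41 ± 0.083, and the regulatory subunit PIK3R1 by 0.32 ± 0.032.

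Markers that hepatoblasts share with bile duct cells were mostly lower, 5 of 7 tested genes against 1 higher. ANXA4 moved from 991, 1004 and 984 to 721, 724 and 718 CPM and CD24 from 395, 402 and 402 to 298, 308 and 301 CPM (log2 fold changes -0.46 ± 0.025 and -0.40 ± 0.024), KRT19 fell by 0.13 ± 0.022, and the chloride channel CFTR rose from 14.8, 11.6 and 11.2 to 17.4, 19.3 and 18.2 CPM. Of 15 tested histone genes 2 were higher and 1 was lower, beside 17.3% and 18.3% of all genes tested. The lower one, H2AX, which marks DNA breaks when phosphorylated, fell from 173, 183 and 178 to 136, 132 and 120.4 CPM.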
